A study of Marchantia polymorpha with 9 samples.

Results

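The core of the nuclear auxin response in the liverwort Marchantia polymorpha was described here at the transcript level through 4 genes of the 19287 in the count table. They are the auxin receptor gene MpTIR1 (Mapoly0035s0062.v3.1), the Aux/IAA repressor gene MpIAA (Mapoly0034s0017.v3.1), and the auxin response factor genes MpARF1 (Mapoly0019s0045.v3.1) and MpARF2 (Mapoly0011s0167.v3.1). The rule that chose them names them by ID and uses no measured value. All 4 rows were found in the table, had counts in all 9 libraries and passed the filter on low counts. The names follow the usage of the field. The RefSeq name table for assembly MpTak2_v7.1 lists all 4 names, but under other identifiers. None of the file's IDs (0 of 19287) occurs in it, so the tie between ID and name was not checked here.

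In this pathway MpTIR1 is the F-box protein that binds auxin together with its target MpIAA and marks that target for degradation. MpIAA is the repressor that, in the absence of auxin, holds the activating auxin response factor in check by recruiting a corepressor. MpARF1 is the activating factor and MpARF2 a repressing factor that does not answer to auxin itself and can occupy the same DNA sites. The response therefore depends on how much of each component a cell holds. In the thallus, the flat plant body of the liverwort, auxin signalling is known for its roles in the apical notch, in rhizoid formation and in the dormancy of gemmae. Because MpIAA is regulated by protein degradation, its transcript level is one part of its control, and RNA sequencing does not measure the other.

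RNA was sequenced from whole thalli of 10-day-old male plants of the Cambridge strain, all raised from gemmae on agar with long days and without any treatment named in the labels. The genotypes are labelled WT, OX and KO, taken to stand for wild type, overexpression and knockout, with 3 libraries each. The series is about a MYB transcription factor lineage related to MIXTA, but the labels name no gene, promoter or individual line for OX or KO. The design text gives 3 biological replicates per line, so that each genotype appears to be 1 line, and genotype and line cannot be told apart.

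The row of the manipulated MYB gene was not identified, so no check of the genotype labels by that gene was made. Library totals were 44802998 to 57696744 counts, and WT replicate 2 was the shallowest library. All counts are even, as if both reads of a pair had been counted (2 per pair), and counting errors were taken from pairs. Of the 113 Y-chromosome IDs, the marker of the labelled sex, 34 passed the filter on low counts and were tested. Counts were present in all 3 genotypes for 33 of the 34. Since the filter itself asks for counts, this is no independent check of the sex. No other tissue marker could be tied to an ID. In bulk tissue, fewer cells of a type and less RNA per cell cannot be told apart, which holds for every level below.

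In the model with genotype alone, none of the 4 genes passed the test in any comparison of genotypes. A model with the replicate number as a block, an alternative that the labels do not call for, did call MpTIR1 and MpIAA in part of the comparisons, as given with the other alternatives. With edgeR's quasi-likelihood test, with p-values adjusted after Benjamini and Hochberg across the 14813 genes tested and a threshold of 0.05, 0 of 4 members were called in OX against WT, where 24.8% of all genes were called. In KO against WT 0 of 4 were called, against 14.1% of all genes. In OX against KO 0 of 4 were called, against 34.7%. The test of any difference among the genotypes called 0 of 4, against 36.8% of all genes. At an unadjusted p under 0.05 the counts were 0 in OX against WT, 1 in KO against WT (MpIAA) and 0 in OX against KO, where 36.4%, 27.4% and 44.2% of all genes passed. In OX against WT the libraries of the 2 genotypes overlapped for all 4 members, while they did not for 40.2% of all genes. DESeq2 and limma-voom each called 0 of 4 in every one of these tests. With 4 genes, a count of 0 is a description of these genes and does not set them apart from the rest of the transcriptome.

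The fold changes were small beside a 2-fold change, with the widest intervals for MpTIR1. The 95% intervals of the fold changes, not adjusted for the number of genes, ran from 0.833 to 1.15 over the 4 genes in OX against WT. They ran from 0.805 to 1.31 in KO against WT and from 0.746 to 1.17 in OX against KO. A 2-fold change lies outside all 12 intervals. The median size of the log2 fold change over the 4 genes was 0.037 in OX against WT, beside 0.15 over all genes tested. It was 0.12 beside 0.12 in KO against WT, and 0.088 beside 0.19 in OX against KO. The medians over all genes were not matched for level. The mean levels of the 4 genes exceeded those of 89.6% (MpARF1) to 97.6% (MpIAA) of all genes tested. Both comparisons with WT rest on the same WT libraries.

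**Figure D1:**
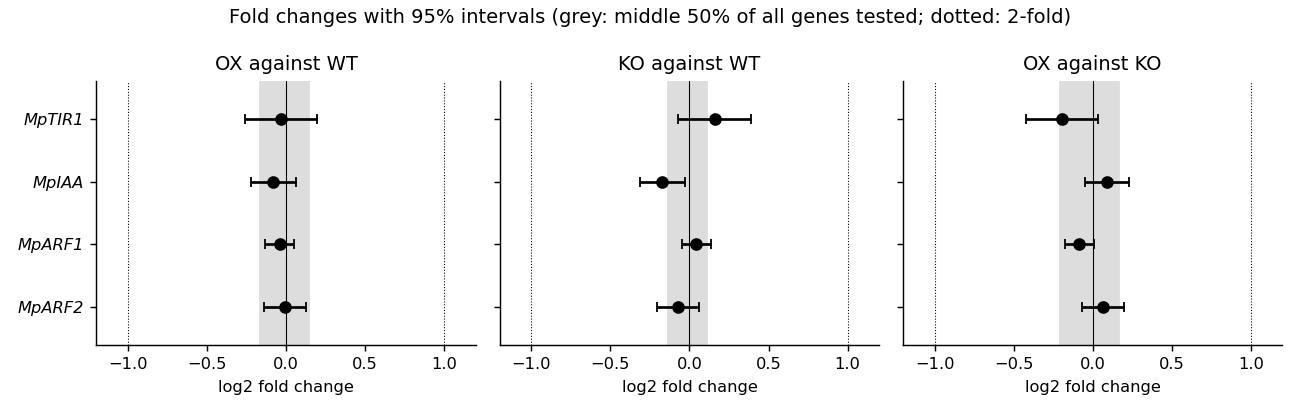
Log2 fold changes of the 4 genes (points) with 95% intervals (bars) in the 3 comparisons of genotypes; the grey band is the middle 50% of all genes tested and the dotted lines mark 2-fold. All 12 intervals lie inside the 2-fold lines, and in KO against WT the interval of MpIAA, from -0.31 to -0.03, does not include 0.

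The receptor gene MpTIR1 was the most variable of the 4. Its level, in CPM (counts relative to the TMM-adjusted size of the library), was 106, 126 and 132 in WT replicates 1 to 3. It was 112, 122 and 122 CPM in the OX libraries in the same order, and 115, 150 and 142 CPM in the KO libraries. Replicate 1 was the lowest library of each genotype, and the genotypes overlapped in every pairing. The mean level was highest in KO, at 135 ± 18.2 CPM (SD, n = 3), followed by WT at 121 ± 13.9 and OX at 118 ± 5.57. No neighbours in this order differed beyond their spread. The log2 fold change was 0.16 ± 0.10 (SE) in KO against WT (adjusted p = 0.361), -0.19 ± 0.10 in OX against KO (adjusted p = 0.175) and -0.03 ± 0.10 in OX against WT (adjusted p = 0.85), where the direction turned with library size alone and without WT replicate 3 or OX replicate 1. The comparison of OX with KO turned on KO replicate 1, the low library of that genotype. Without it the log2 fold change was -0.30 with an adjusted p of 0.0283, and the test of any difference gave an adjusted p of 0.0464. Without KO replicate 2 the log2 fold change was -0.12, with an adjusted p of 0.481. The value in KO against WT moved as much, to 0.07 without WT replicate 1, 0.08 without KO replicate 2 and 0.27 (adjusted p = 0.0861) without KO replicate 1.

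The spread of MpTIR1 was much larger than counting error. Its coefficient of variation was 11.5% for WT, 4.70% for OX and 13.5% for KO, where the number of read pairs alone gives 1.62% to 1.77%. Pooled over the genotypes it was 10.6%, beside a median of 3.95% over the 1330 genes within 0.5 of its log2 level. It was higher than that of 90.5% of those genes. Counting error alone would thus have given a smaller spread than the one seen between replicate libraries. The source of that spread was not tested.

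The repressor gene MpIAA was the only member whose KO and WT libraries did not overlap, which was the case for 31.2% of all genes tested. Its level was 451, 402 and 439 CPM in WT replicates 1 to 3, 444, 384 and 393 CPM with OX, and 397, 382 and 367 CPM in KO. All 3 KO libraries lay below the lowest WT library, by a narrow margin of 397 against 402 CPM, and the OX range overlapped both. The mean was 430 ± 25.4 CPM for WT, 407 ± 32.3 for OX and 382 ± 14.8 in KO (SD, n = 3 each). In KO against WT the log2 fold change was -0.17 ± 0.064 (SE), a level of 0.888 times that of WT with a 95% interval of 0.805 to 0.979. The unadjusted p was 0.0223 and the adjusted p 0.108, so the difference did not pass the threshold over all genes. The adjusted p in DESeq2 was 0.069 and in limma-voom 0.102. In size, this fold change exceeded that of 60.6% of all genes tested. In OX against WT the log2 fold change was -0.08 ± 0.064 (adjusted p = 0.398), and in OX against KO it was 0.09 ± 0.064 (adjusted p = 0.302). With library size alone these were -0.03 (adjusted p = 0.75) and 0.17 (adjusted p = 0.0545). Without OX replicate 1, the high library of that genotype, they were -0.14 (adjusted p = 0.119) and 0.03 (adjusted p = 0.722).

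The activator gene MpARF1 had the steadiest level of the 4. Its CPM was 118, 123 and 128 in WT replicates 1 to 3, 119, 120 and 120 with OX, and 124, 129 and 127 with KO. From the lowest to the highest of the 9 libraries the level differed 1.10-fold, compared with 1.42-fold for MpTIR1, 1.23-fold for MpIAA and 1.19-fold for MpARF2. The mean was 127 ± 2.59 CPM in KO, 123 ± 5.18 in WT and 120 ± 0.372 in OX (SD, n = 3 each). The 3 OX libraries lay closer together, with a coefficient of variation of 0.311%, than the 1.70% that counting error gives for 1 library. The small SD of OX is therefore no measure of the true spread. Over the genotypes the coefficient of variation was 2.71%, higher than in only 19.9% of the 1341 genes of like level.

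All 3 OX libraries of MpARF1 lay below all 3 KO libraries, as was the case, in either direction, for 49.1% of all genes tested. The log2 fold change in OX against KO was -0.08 ± 0.041 (SE) with an adjusted p of 0.14. With RLE and upper-quartile scaling it was -0.084 and -0.067. With library size alone the log2 fold change was -0.01 with an adjusted p of 0.913. The median over all genes tested in that comparison was then 0.075, beside -0.0023 with TMM. Against WT the log2 fold changes were -0.04 ± 0.041 for OX (adjusted p = 0.522) and 0.04 ± 0.041 for KO (adjusted p = 0.552). The direction for OX against WT turned with library size alone, as it did for MpTIR1 and MpARF2. In that comparison all genes tested had a median of 0.061 with library size alone, beside 0.0099 with TMM.

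The repressing factor gene MpARF2 had 225, 215 and 256 CPM in WT replicates 1 to 3, 238, 225 and 228 CPM with OX, and 220, 224 and 216 CPM with KO. WT replicate 3 was the highest of the 9 libraries and WT replicate 2 the lowest, so that WT enclosed both other genotypes. The mean was 232 ± 21.4 CPM for WT, 231 ± 6.59 for OX and 220 ± 3.80 in KO (SD, n = 3 each). The log2 fold change was -0.01 ± 0.060 (SE) in OX against WT (adjusted p = 0.934), the smallest in size of the 12. It was -0.07 ± 0.060 in KO against WT (adjusted p = 0.482). The OX libraries lay above the KO libraries without overlap. In either direction, this was the case for 49.1% of all genes tested. The log2 fold change in OX against KO was 0.07 ± 0.060, with an adjusted p of 0.437. With library size alone it was 0.14, with an adjusted p of 0.0971. Without WT replicate 3 the direction turned in both comparisons with WT, to 0.08 for OX and 0.004 for KO. No direction against WT can thus be given for MpARF2.

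**Figure D2:**
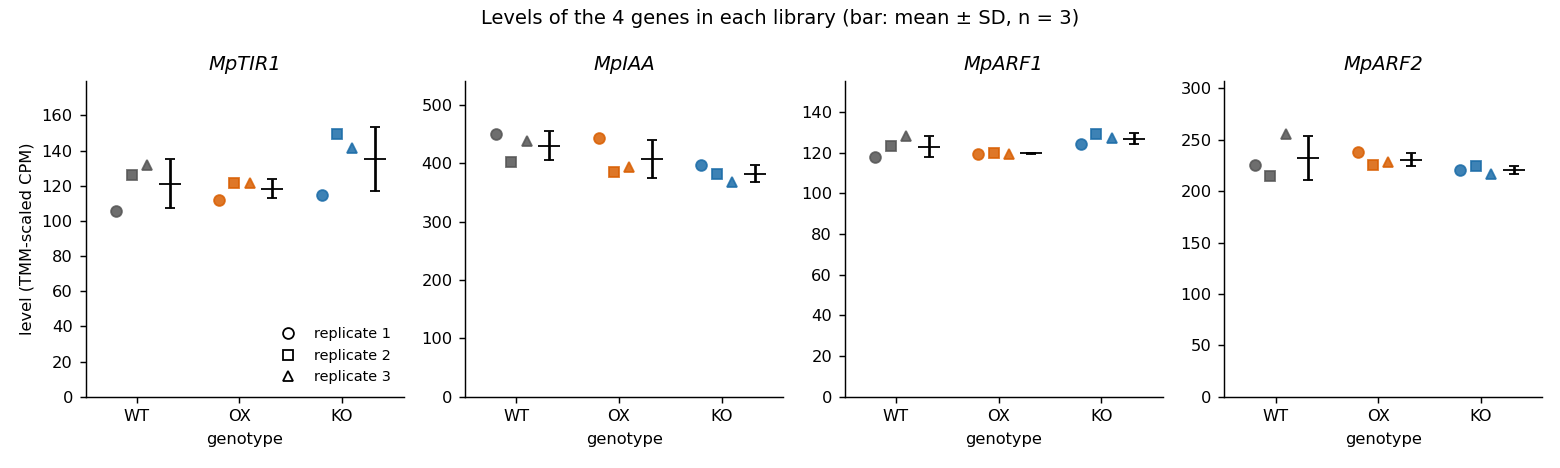
Levels of MpTIR1, MpIAA, MpARF1 and MpARF2 in each of the 9 libraries in TMM-scaled CPM, with the replicate number as the symbol and the mean ± SD of each genotype beside it; axes start at 0. KO libraries of MpIAA lie at 367 to 397 CPM, below the WT libraries at 402 to 451, and MpTIR1 is lowest in replicate 1 of each genotype.

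For 3 of the 4 genes, the same replicate number was the lowest or the highest in all 3 genotypes. MpTIR1 deviated from the mean log2 CPM of its genotype by -0.19, -0.08 and -0.23 in replicate 1 of WT, OX and KO. MpARF1 was also lowest in replicate 1 of each genotype, with deviations of -0.06, -0.004 and -0.03. In OX its libraries differed by less than counting error, so their order there cannot be read. MpIAA was highest there, with deviations of 0.07, 0.13 and 0.06. MpARF2 had no replicate number that was lowest or highest in all 3 genotypes. The receptor and repressor transcripts thus lay on opposite sides of their means in the libraries numbered 1. Such a pattern was not rare, since 11.9% of all genes tested were lowest and 11.0% highest in replicate 1 of all 3 genotypes. For replicate 2 these shares were 3.33% and 3.59%, and for replicate 3 they were 9.66% and 10.1%. The labels do not say that a replicate number marks a shared plate, day or harvest.

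**Figure D3:**
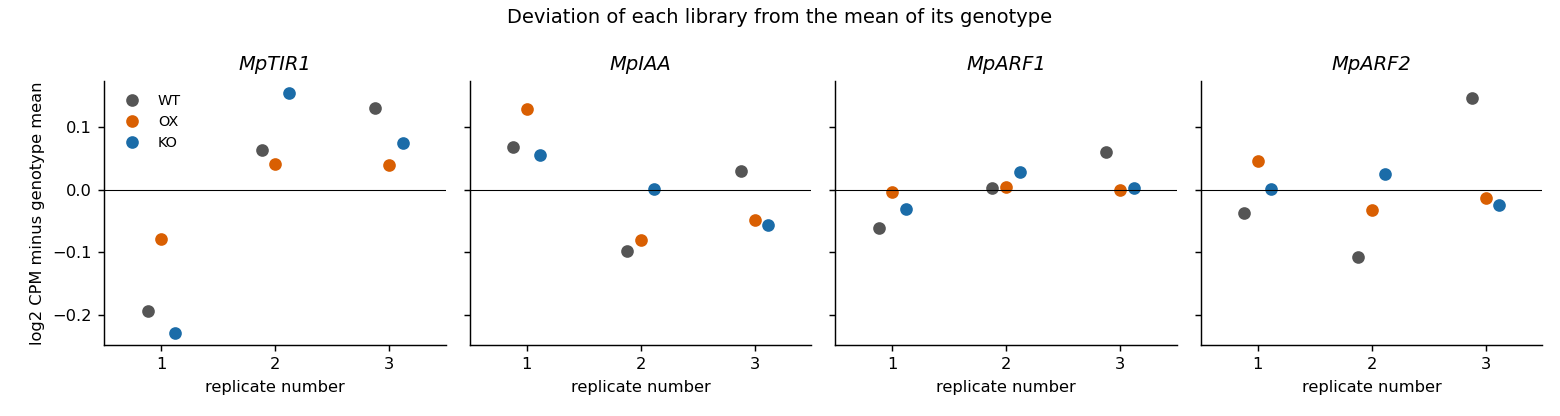
Deviation of each library from the mean log2 CPM of its genotype, by replicate number and coloured by genotype, for the 4 genes. In replicate 1 all 3 points of MpTIR1 lie below 0, between -0.23 and -0.08, and all 3 of MpIAA above it, between 0.06 and 0.13.

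Ratios between the genes within a library do not depend on the scaling. A ratio of counts carries the lengths of both genes, so that only its change from library to library can be read. The ratio of MpARF1 to MpARF2 sets the activating against the repressing factor. It was 0.523, 0.574 and 0.501 in WT replicates 1 to 3, 0.501, 0.533 and 0.524 with OX, and 0.563, 0.577 and 0.587 with KO. The KO libraries lay above all OX libraries, and WT, from 0.501 to 0.574, overlapped both. The mean ratio was 0.533 ± 0.037 for WT, 0.519 ± 0.016 for OX and 0.576 ± 0.012 for KO (SD, n = 3 each). An exact permutation test over all divisions of the 9 libraries into the 3 genotypes gave p = 0.139, where 0.00357 is the smallest p this design allows. The result turned on WT replicate 2, the shallowest library and the WT library with the highest ratio. Without it the exact permutation p was 0.0179 and the lowest mean moved from OX to WT.

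The other 5 ratios are given as a description. How often ratios of other gene pairs separate the genotypes was not computed, for these or for MpARF1 to MpARF2. The ratio of MpARF1 to MpIAA, activator to repressor, was 0.261, 0.306 and 0.292 in WT replicates 1 to 3, 0.269, 0.312 and 0.304 with OX, and 0.313, 0.338 and 0.346 in KO. It was the only ratio in which the KO libraries lay apart from those of both other genotypes. The gap was narrow, since KO replicate 1 at 0.3129 lay just above OX replicate 2 at 0.3125. The mean log2 ratio was higher in KO than in WT by 0.21, which adds the lower MpIAA and the slightly higher MpARF1 of that genotype.

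The ratio of MpTIR1 to MpIAA, receptor to its target, was 0.234, 0.313 and 0.301 in the WT libraries, 0.252, 0.316 and 0.309 with OX, and 0.289, 0.391 and 0.385 with KO. Its mean log2 value was higher in KO than in WT by 0.33, the largest such difference of the 6 ratios. The genotypes overlapped all the same, as KO replicate 1 at 0.289 lay within the ranges of WT and OX. Within each replicate number KO had the highest value, although the labels do not pair libraries by number. The same held for MpARF1 to MpARF2, MpARF1 to MpIAA and MpTIR1 to MpARF2, but not for the remaining ratios. These ratios share genes with each other, so their agreement does not count as repeated evidence. How often ratios of other gene pairs show this order was not computed. The ratios of MpARF2 to MpIAA, MpTIR1 to MpARF1 and MpTIR1 to MpARF2 overlapped between all genotypes.

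**Figure D4:**
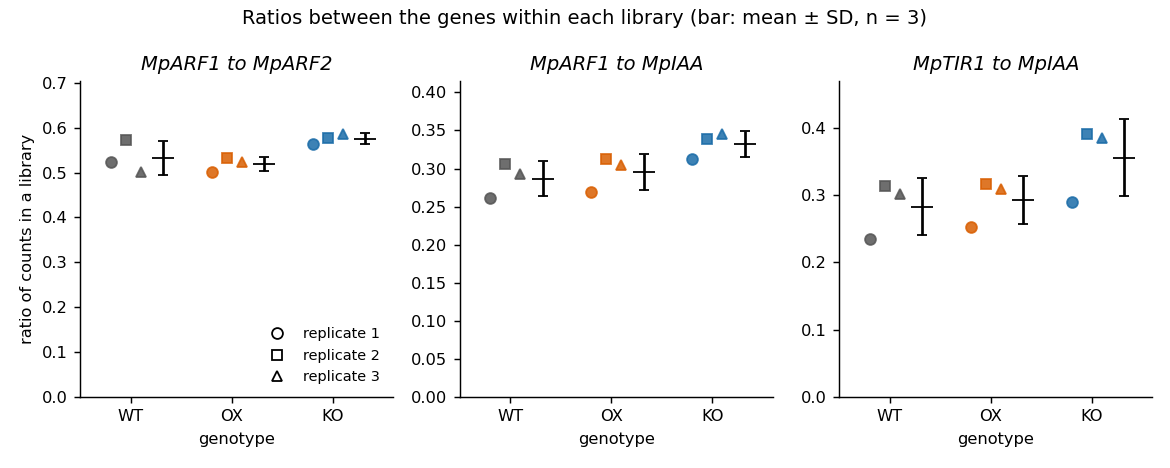
Ratios of counts within each library for MpARF1 to MpARF2, MpARF1 to MpIAA and MpTIR1 to MpIAA, with the replicate number as the symbol and the mean ± SD of each genotype beside it; axes start at 0. KO has the highest mean in all 3 panels (0.576, 0.332 and 0.355), and the WT and KO libraries overlap in the first and the third.

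The profiles of the 4 genes over the 9 libraries were compared as a description. The root mean square difference between their mean-centred log2 CPM profiles was smallest for MpIAA and MpARF2, at 0.079, and largest for MpTIR1 and MpIAA, at 0.23. It was 0.083 for MpARF1 and MpARF2, 0.11 for MpTIR1 and MpARF1, 0.13 for MpIAA and MpARF1, and 0.17 for MpTIR1 and MpARF2. The median difference from all other genes tested was 0.22 for MpTIR1, 0.19 for MpIAA, 0.16 for MpARF1 and 0.17 for MpARF2 on the same scale. MpTIR1 and MpIAA were thus the only pair that lay farther apart than both of their medians. The genes of most similar profile were Mapoly0155s0008 (difference 0.055) and Mapoly0154s0025 (0.056) for MpTIR1, and Mapoly0001s0073 (0.034) and Mapoly0071s0110 (0.039) for MpIAA. They were Mapoly0016s0161 (0.019) and Mapoly0036s0118 (0.020) for MpARF1, and Mapoly0070s0053 (0.037) and Mapoly0051s0027 (0.039) for MpARF2. The file does not pair these IDs with names. A flat profile is close to many others, and 3760 genes lay within 0.1 of MpARF1 but only 162 within 0.1 of MpTIR1.

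The IDs place the 4 genes on 4 different scaffolds, numbered 35 for MpTIR1, 34 for MpIAA, 19 for MpARF1 and 11 for MpARF2. Of the 40 gene IDs within 5 numbers of a member on its scaffold, 31 were tested. In OX against WT 2 of these 31 neighbours were called (6.45%, beside 24.8% of all genes), 1 higher and 1 lower. In KO against WT 2 were called (6.45%, beside 14.1%), both lower and both within 5 numbers of MpIAA. In OX against KO 9 were called (29.0%, beside 34.7%). Other genes of the auxin pathway, such as those for auxin synthesis, transport and conjugation, were not analysed here, since no source used here ties their names to the IDs of the table.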

How the data were processed

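Per the file headers and row names, the authors deposited raw counts per gene for version 3.1 gene models, 1 column per sample. The submitters' processing notes list STAR 2.5.1b and featureCounts 1.5. Settings, strandedness and build were not given in the sources used here, and reads shared with near-identical or overlapping genes may thus have been split or dropped. Libraries were matched by their library names; 0 columns of other samples were present. Replicate libraries differed by far more than sampling noise (chi-square of 6.25 to 17.0 per degree of freedom), so none was treated as a duplicate.

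Counts were analysed with edgeR 4.0.16 in R 4.3.3, after filterByExpr (14813 of 19287 genes kept) and TMM scaling (factors 0.958 to 1.04), in 1 quasi-likelihood model over all 9 libraries, with standard errors and 95% intervals from the F statistics. The test was tested on simulated data. DESeq2 1.42.0 and limma 3.58.1 (voom) were alternatives. The ratio of MpARF1 to MpARF2 was tested by an exact permutation test of the sum of squares between genotypes. Named genes were the 4 members and, for each, the 2 IDs with the smallest root mean square difference of mean-centred log2 CPM (prior count 2). The members, ratios and lists were chosen with earlier results of these data known. The deviations by replicate number were looked at after their values were seen. The p-values measure only the spread between samples within each line. Intervals for counting cover counting error only.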

Additional observations from a re-analysis of the deposited data

How the results depend on the processing

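Over the alternatives, 215 of 228 recomputed fold changes of the 4 genes kept both their direction and their side of the threshold, 4 came to pass it and 9 turned direction while not passing it. With library size alone, OX against WT turned to 0.017 for MpTIR1, 0.0102 for MpARF1 and 0.041 for MpARF2 (log2). In the same comparison, leaving out single libraries gave MpTIR1 -0.124 (without WT replicate 1) to 0.0404 (without WT replicate 3), also above 0 without OX replicate 1. It gave MpARF2 -0.062 (without WT replicate 2) to 0.0755 (without WT replicate 3), also above 0 without OX replicate 2 or 3. MpARF2 in KO against WT ran from -0.127 (without WT replicate 2) to 0.00415 (without WT replicate 3). Without single libraries, 0 to 1 of 4 genes were called in OX against KO and for any difference, in both cases MpTIR1 without KO replicate 1, and 0 in the other comparisons. The ratio of MpARF1 to MpARF2 then had exact permutation p-values of 0.0179 (without WT replicate 2) to 0.204. Other scalings, both filters, DESeq2, limma-voom, halved counts and fits on 2 genotypes called 0 of 4 throughout. The cause of the single-library moves was not tested.

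With the replicate number as a block, 2 of 4 genes were called in KO against WT (MpIAA, log2 fold change -0.17, adjusted p = 0.01; MpTIR1, 0.16, adjusted p = 0.0316) and 1 in OX against KO (MpTIR1, -0.19, adjusted p = 0.00723). For any difference 2 were called (adjusted p = 0.0119 for MpTIR1, 0.0136 for MpIAA), and 0 in OX against WT. Of all 14813 genes, the block called 5158 in OX against WT (3667 without it) and 3516 in KO against WT (2096 without it). It called 6578 in OX against KO (5144 without it) and 7307 for any difference (5453 without it). With labels permuted within replicate numbers, the ratio of MpARF1 to MpARF2 gave an exact permutation p of 0.111, where 0.0278 is the smallest possible. The labels do not say that the numbers pair libraries. For same-numbered libraries, correlations of deviations from the genotype mean lay between 0.0096 and 0.241, and 6 of 9 exceeded 0.1. Other pairs gave -0.259 to 0.023. Of 9 libraries, 7 correlated best with their own number in both other genotypes, a hint from the data, not the design. Each gene had 2721 to 12782 read pairs per library. The spread between replicates exceeded counting error for MpTIR1 and MpIAA in each genotype, and for MpARF2 in WT and OX. In KO it was close to counting error for MpARF2 (1.73% against 1.27%) and MpARF1 (2.04% against 1.68%), and for MpARF1 in OX below it.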
